A study of Mus musculus with 14 samples.

Results

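miR-136 was followed as 1 probe, mmu-miR-136, out of 626 on the NanoString nCounter mouse miRNA panel. This assay ligates a tag to each miRNA, captures it on a color-coded probe and counts single barcodes, so the value of a probe is a count. The probe was chosen by its counts in these same samples, which were far higher after irradiation than in sham, and the size of that rise is therefore given as a description with no test. It was the only probe of its hairpin on the table, and its name carries no arm suffix. The name without a suffix is the older name of the 5p arm, but the probe's own sequence was not in the files used here.

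The samples were extracellular vesicles (EVs), the small membrane particles that cells release into blood, pelleted from cleared mouse plasma by differential centrifugation. The 5 samples labelled 2 Grays of WBIR (whole-body irradiation) and the 5 labelled 9 Grays of WBIR were collected 3 days after exposure, and the 4 sham samples were not irradiated. The study's methods describe female C57BL/6J mice of 6 to 8 weeks and a cesium source. The labels give no sampling time for sham and do not say whether each sample came from a separate mouse, so p-values measure the spread between these samples, which may be technical. A pellet of plasma EVs mixes vesicles from many tissues, and from these counts alone more vesicles cannot be told apart from more of a miRNA per vesicle. The total count over the 599 miRNA probes was 4781 to 6926 in sham, 8019 to 10455 at 2 Gy and 11518 to 20150 at 9 Gy.

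miR-136 is encoded in the imprinted Dlk1-Dio3 region, one of the largest miRNA clusters of mammals, whose noncoding RNAs are transcribed from the maternal chromosome. It belongs to the group of miRNAs that lie antisense to Rtl1, a paternally expressed gene derived from a retrotransposon and needed in the placenta. These antisense miRNAs, with miR-127, miR-431, miR-433 and miR-434 among them, pair perfectly with the Rtl1 mRNA. As with other miRNAs, bases 2 to 8 from the 5′ end, the seed, do most of the work of choosing other targets.

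The sequences show what a probe to miR-136 would read and how it differs from its neighbours. In RefSeq on GRCm38.p6 the Mir136 hairpin is 62 bases long and lies on the plus strand at chr12:109595327-109595388, as the 17th of 61 annotated miRNA genes between Dlk1 and Dio3. In the hairpin line, capitals mark the 5p arm first and the 3p arm second. The 5p arm occupies chr12:109595331-109595352 and the 3p arm chr12:109595366-109595387.
Mir136 hairpin: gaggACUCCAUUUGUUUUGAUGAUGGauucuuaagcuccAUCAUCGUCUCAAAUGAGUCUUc

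In the mature sequences that follow, capitals mark the seed. The 5p and 3p arms of miR-136 are shown first, then miR-432 and both arms of miR-434, the closest upstream neighbours with a probe, and last the miR-3071-3p arm, which RefSeq places on the minus strand at chr12:109595329-109595350, over the 5p arm of miR-136.
mmu-miR-136-5p: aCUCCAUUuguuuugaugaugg
mmu-miR-136-3p: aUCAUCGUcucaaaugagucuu
mmu-miR-432: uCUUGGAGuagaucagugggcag
mmu-miR-434-5p: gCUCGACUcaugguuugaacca
mmu-miR-434-3p: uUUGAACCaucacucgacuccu
mmu-miR-3071-3p: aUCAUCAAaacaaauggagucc

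Every seed in this set is different. Of 1679 mature miRNA names in the RefSeq table, only miR-136-5p carries the seed CUCCAUU, and no other name shares even bases 2 to 7. Of the 566 mouse miRNA probes, 437 matched a RefSeq mature name, and none of the matched probes other than miR-136 had this seed on any arm. The longest run of bases that another matched probe shared with miR-136-5p was 7. miR-136-5p has 14 A or U among its 22 bases, 10 of them U, and 20 consecutive bases of it are complementary to miR-3071-3p, for which the table held no probe.

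In sham EVs the miR-136 probe was close to the background of the assay. It gave 20, 19, 16 and 10 counts in sham replicates 1 to 4, a mean of 16.3 ± 4.50 (SD, n = 4). The panel's negative controls, 8 probes with no target in the sample, had medians of 8.0, 8.0, 9.5 and 6.5 in the same samples. One of the 8, NEG_C, stood apart in sham with 27 to 60 counts and was above miR-136 in every sham sample. Without NEG_C, the highest negative control was 14, 13, 16 and 11, so miR-136 exceeded it in replicates 1 and 2, equalled it in replicate 3 and was below it in replicate 4. The exact Poisson 95% interval of the lowest sham count, 10, was 4.80 to 18.4, and that of the highest, 20, was 12.2 to 30.9; these intervals cover counting error only. The sham level is thus a small number on top of a similar background.

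In irradiated EVs the same probe was among the strongest signals on the panel. At 2 Gy it gave 795, 628, 584, 558 and 633 counts in replicates 1 to 5, with 639.6 ± 92.3 as the mean (SD, n = 5). At 9 Gy it gave 829, 916, 857, 798 and 987 counts, a mean of 877 ± 75.1 (SD, n = 5). All 10 irradiated samples exceeded every sham sample, and all 8 negative controls in each irradiated sample, NEG_C included, lay below miR-136. The lowest 2 Gy count was 27.9 times the highest sham count, and the lowest 9 Gy count 39.9 times. The negative controls themselves hardly differed between groups, with medians of 7.0 to 8.5 at 2 Gy and 5.0 to 9.5 at 9 Gy.

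**Figure D1:**
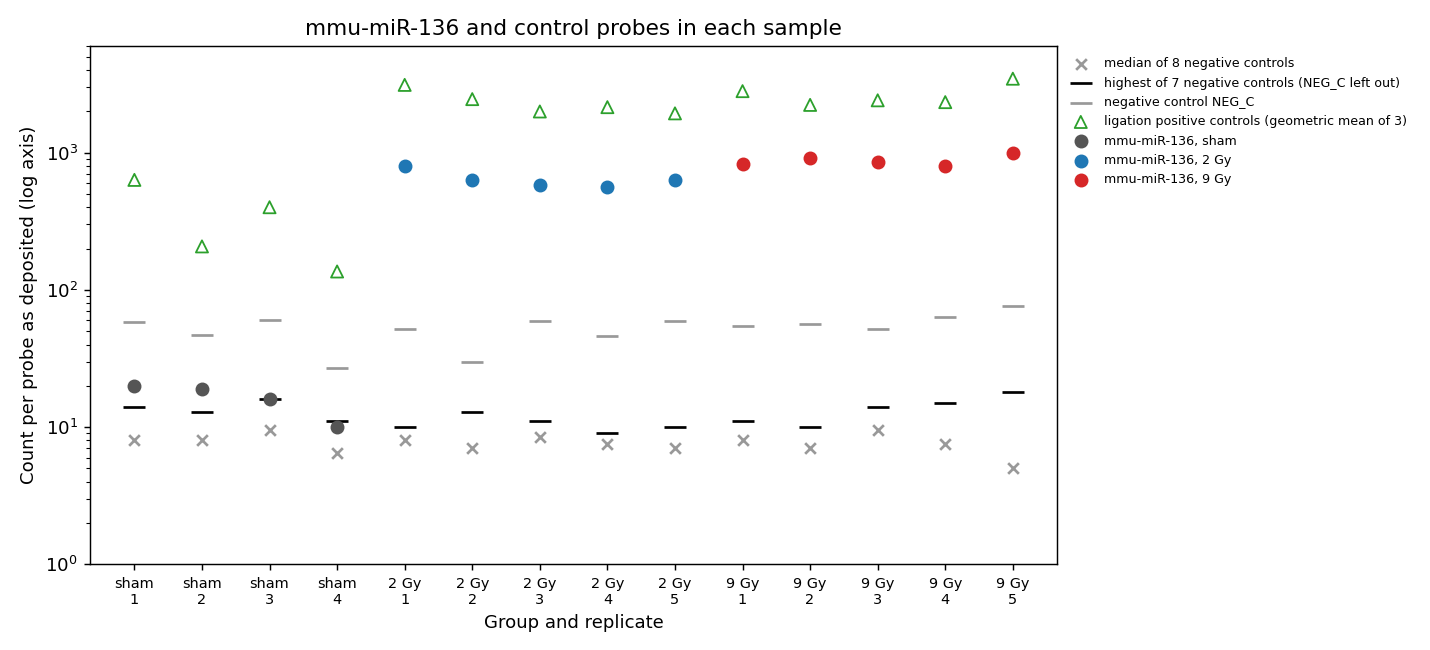
Counts of mmu-miR-136 (filled circles) in each of the 14 samples on a log axis, with the geometric mean of the 3 ligation positive controls (open triangles), NEG_C (grey dashes), the highest of the other 7 negative controls (black dashes) and the negative control median (crosses). The 4 sham samples lie at 10 to 20 counts beside the negative controls, and the 10 irradiated samples lie at 558 to 987.

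Counts depend on how much tagged RNA a sample delivered, so they were also put on a common scale. Scaled counts divide each count by a library size adjusted with TMM, a method that assumes most miRNAs do not differ. On this scale sham replicates 1 to 4 had 17.0, 18.3, 16.0 and 13.3, the 2 Gy replicates 824, 765, 627, 652 and 680, and the 9 Gy replicates 867, 792, 778, 687 and 756. The mean scaled count was 44.0 times sham at 2 Gy and 48.1 times sham at 9 Gy, beside ratios of 39.4 and 54.0 for the deposited counts. The irradiated samples of both doses again lay apart from sham, and here they lay among each other. The sham counts sit on background, and the ratio changed both with how that background was treated and with the scaling. With the median negative control subtracted it was 87.4 at 2 Gy and 95.9 at 9 Gy. Scaled by total miRNA count it was 26.7 and 24.0, and by ligation controls 4.70 and 5.71.

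miR-136 also took a larger part of everything counted. It held 0.289%, 0.297%, 0.264% and 0.209% of the miRNA counts in sham replicates 1 to 4. The share was 7.60%, 7.16%, 7.28%, 6.46% and 6.77% in the 2 Gy replicates and 6.71%, 7.45%, 7.44%, 5.30% and 4.90% in the 9 Gy replicates. The exact binomial 95% intervals ran from 0.10% to 0.464% over the sham samples and from 4.60% to 8.13% over the irradiated ones. By count it ranked 36, 32, 42 and 78 among the 566 mouse miRNA probes in sham replicates 1 to 4, and in the irradiated samples it ranked 2 in 9 of 10 and 3 in 2 Gy replicate 3. Ranks and shares are of barcodes, since probes can differ in how well they capture their miRNA.

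The ligation positive controls moved in the same direction as miR-136. These 3 probes, LIG_POS_A, LIG_POS_B and LIG_POS_C, read synthetic RNAs that report on the tagging step. Their geometric mean was 634, 208, 401 and 136.3 counts in sham replicates 1 to 4, 3121, 2458, 1998, 2148 and 1935 at 2 Gy, and 2810, 2231, 2409, 2337 and 3463 at 9 Gy. The groups did not overlap between sham and either dose, and the geometric group mean was 7.88 times sham at 2 Gy and 8.98 times sham at 9 Gy. The hybridisation positive controls, which skip the ligation, stood at 0.926 and 0.989 times sham. Their part in the miR-136 counts was not tested.

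Set against the ligation controls of the same sample, miR-136 was still higher in the irradiated EVs, by a much smaller factor than without them. Per 100 counts of ligation control, sham replicates 1 to 4 held 3.16, 9.15, 3.99 and 7.34 counts of miR-136. The 2 Gy replicates held 25.5, 25.5, 29.2, 26.0 and 32.7, and the 9 Gy replicates 29.5, 41.1, 35.6, 34.1 and 28.5. The irradiated samples remained above sham without overlap, the lowest 2 Gy value being 2.78 times and the lowest 9 Gy value 3.11 times the highest sham value. The geometric group mean was 5.13 times sham at 2 Gy and 6.20 times sham at 9 Gy, and with the median negative control subtracted from both counts it was 9.94 and 12.1 times sham. Entering the log2 ligation control as a covariate instead, beside TMM scaling, left the fitted log2 difference from sham at 4.98 for 2 Gy and 5.08 for 9 Gy, against 5.44 and 5.57 without it, so the size left after the ligation controls depended on how they entered. Within sham, miR-136 ran only from 10 to 20 counts while the ligation controls ran from 136.3 to 634, which spread the sham ratio more widely than the irradiated ones.

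**Figure D2:**
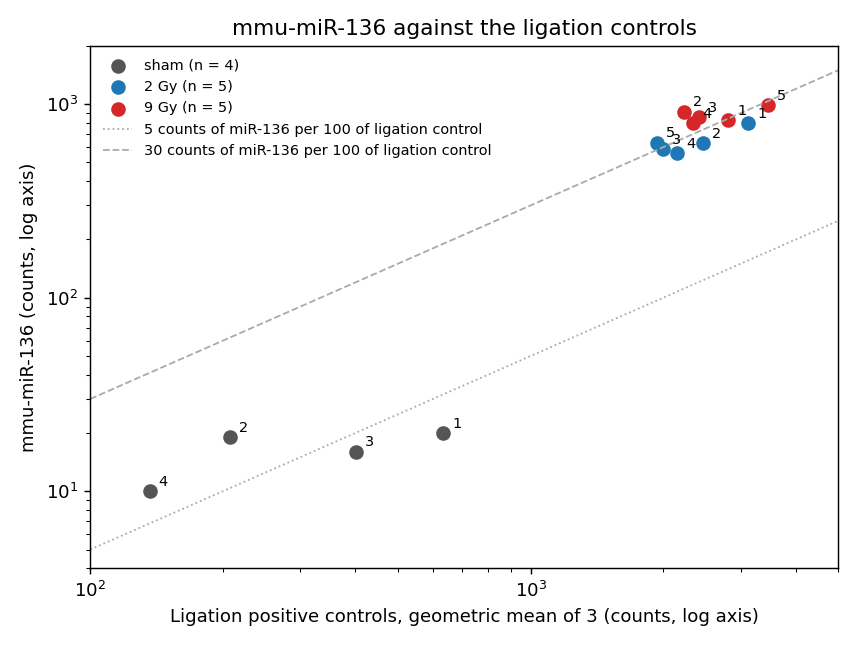
Count of mmu-miR-136 against the geometric mean of the 3 ligation positive controls, both on log axes, with 1 numbered point per sample and lines at 5 and 30 counts of miR-136 per 100 counts of ligation control. The sham points lie near the lower line at 3.16 to 9.15 per 100, and the irradiated points lie near the upper line at 25.5 to 41.1 per 100.

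The deposited counts at both doses, and the ligation controls beside them, were read when the probe was chosen, so miR-136 is compared between the doses as a description, with no p-value. miR-136 differed between 9 Gy and 2 Gy by 0.13 ± 0.09 (log2 fold change ± SE of scaled counts) in the edgeR quasi-likelihood fit. The fit covered all 176 tested probes, and the SE describes spread and is not read as a test. No probe was called in this comparison (0.0% of 176 by edgeR), while 20 had an unadjusted p under 0.05 and DESeq2 and limma-voom called 1 probe each. Other scalings of the edgeR fit called more, 7 probes with total miRNA count and 12 with hybridisation controls.

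How far the doses differed depended on the scale. On the deposited counts the lowest 9 Gy sample, 798, was just above the highest 2 Gy sample, 795, and the geometric mean was 1.38 times higher at 9 Gy. Of the 176 tested probes, 5.68% had deposited counts at 9 Gy that lay wholly above those at 2 Gy. On TMM scaled counts the doses overlapped and the ratio was 1.10. Per hybridisation control the ratio was 1.29, and per ligation control it was 1.21, both with overlap. As a share of the miRNA counts the direction turned, with 9 Gy at 0.889 times 2 Gy.

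Beside these values, the total miRNA count was 1.55 times higher at 9 Gy than at 2 Gy without overlap (two-sided exact permutation p = 0.00794, the smallest this design allows), the ligation controls 1.14 times higher with overlap and the hybridisation controls 1.07 times higher (exact permutation p = 0.357). The part of total count in the miR-136 difference was not tested.

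**Figure D3:**
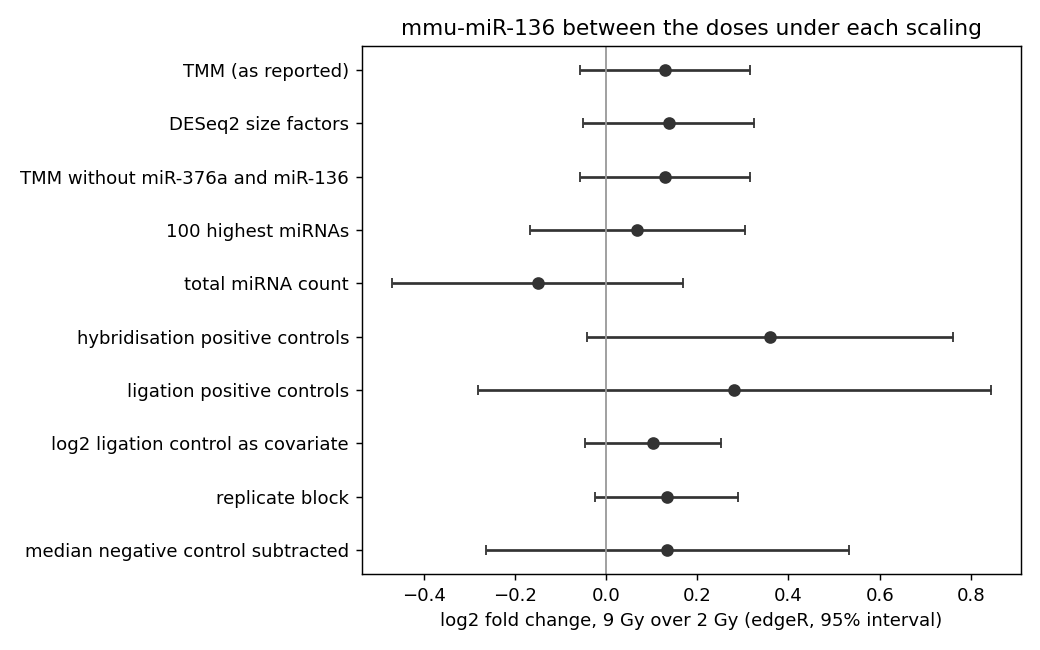
Log2 fold change of mmu-miR-136 at 9 Gy over 2 Gy in the edgeR fit under 10 ways of scaling or modelling the counts, with points for the estimate and bars for the 95% interval. Among these 10 the estimate is below 0 under total count scaling alone, at -0.15. The bars describe spread and are not read as a test, and fits without 1 sample are not drawn.

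The other miRNAs antisense to Rtl1 gave a different picture from miR-136. The list holds 9 names, of which 6 had a probe, and beside miR-136 these were miR-431, miR-433, miR-127, miR-432 and both arms of miR-434. Over the 6 probes the counts were 1 to 16 in sham with a median of 6.5, 1 to 11 at 2 Gy with a median of 5.0, and 2 to 22 at 9 Gy with a median of 5.5. The negative controls without NEG_C ran from 1 to 18 with a median of 7.0 over all samples, a range that held all but the highest of these counts, 22 for miR-431 in 9 Gy replicate 5. Set against the highest negative control of the same sample, NEG_C left out, miR-431 was above it in 3 of 14 samples, miR-433 in 2 and the other 4 probes in 0.

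The miR-127 probe averaged 6.0 ± 1.41 counts across the 4 sham samples, 3.0 ± 2.00 across the 5 samples of 2 Gy and 4.20 ± 2.28 across the 5 of 9 Gy (errors are SDs). miR-432, the nearest upstream neighbour in the gene order of the panel probes, averaged 3.0 ± 0.816, 4.40 ± 2.51 and 4.60 ± 1.14 counts in the same order. miR-431 was the one member with enough counts to be tested, and its log2 fold change was -0.60 ± 0.33 (SE) at 2 Gy, with an edgeR adjusted p of 0.313, and -0.38 ± 0.30 (SE) at 9 Gy, with an edgeR adjusted p of 0.540. At 2 and 9 Gy it was called lower when scaled by the 100 highest miRNAs (log2 fold change -1.02 and -0.86), by total miRNA count (-1.31 and -1.42) and by ligation controls (-3.68 and -3.36). Within this group of neighbouring hairpins, miR-136 was the only probe far above the negative controls after irradiation.

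Across the whole Dlk1-Dio3 cluster, 63 probes besides miR-136 were on the panel and 20 had enough counts to be tested. At 2 Gy versus sham 3 of the 20 were called higher, or 15.0%, against 13.1% of all 176 tested probes, and 1 was called lower, against 1.7% of all. At 9 Gy versus sham 3 were called higher, against 15.9% of all tested probes, and 0 lower, against 1.14% of all. These counts come from the edgeR fit, in which 35 of all probes at 2 Gy and 44 at 9 Gy had an unadjusted p under 0.05. The median log2 fold change of the 20 was 0.01 at 2 Gy and 0.16 at 9 Gy, against 0.05 and 0.01 over all tested probes, so as a group the cluster was called about as often as the panel. Both comparisons use the same sham samples. Leaving out 9 Gy replicate 2 raised the calls in the cluster at 9 Gy from 3 to 5. Scaling by the ligation controls moved the median of all tested probes to -3.01 at 2 Gy and -2.92 at 9 Gy, and then 1 cluster probe was called higher and 17 of 20 lower at each dose, against 1.14% of all tested probes called higher at each dose, 94.9% lower at 2 Gy and 93.8% lower at 9 Gy. Scaling by total miRNA count moved these medians to -0.66 and -1.02, with 3 cluster probes called higher at each dose, 12 lower at 2 Gy and 14 lower at 9 Gy. Over all tested probes that scaling called 6.82% higher and 53.4% lower at 2 Gy, and 8.52% higher and 73.9% lower at 9 Gy.

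The 3 cluster members that rose at both doses were miR-376a, miR-539 and miR-377, although with ligation control scaling only miR-376a was still called, while at 2 and 9 Gy miR-539 stood at a log2 fold change of -0.46 and 0.02 and miR-377 at -0.48 and -0.37. With the log2 ligation control as a covariate miR-376a and miR-539 kept their calls, and miR-377 lost both (log2 fold change 1.47 and 1.33, edgeR adjusted p = 0.914 and 0.896). That fit called only 3 of the 176 tested probes at each dose, against 26 at 2 Gy and 30 at 9 Gy without the covariate. miR-376a, from the miR-376 family further along the cluster, had 10 to 31 counts in sham (median 19.5), 1789 to 3703 at 2 Gy (median 2853) and 4100 to 10763 at 9 Gy (median 5547). It was the one cluster probe that reached higher counts than miR-136 in every irradiated sample. miR-539 had 8 to 14 counts in sham, 57 to 76 at 2 Gy and 79 to 159 at 9 Gy, and miR-377 had 8 to 12, 41 to 110 and 52 to 88. miR-668 was called lower at 2 Gy, with a log2 fold change of -1.14 ± 0.35 (SE, edgeR adjusted p = 0.0164), at counts of 9 to 16 in sham and 2 to 7 at 2 Gy, which lie at the level of the negative controls. This call was lost without 2 Gy replicate 4 (log2 fold change -0.96, edgeR adjusted p = 0.0751), with limma-voom (-1.15, adjusted p = 0.253) and with the ligation covariate (-1.06, edgeR adjusted p = 0.914). Without any 1 of 9 Gy replicates 2 to 5 or sham replicates 1 and 3, with only the sham and 2 Gy samples in the fit, or with either background subtraction, miR-668 had too few counts to be tested.

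**Figure D4:**
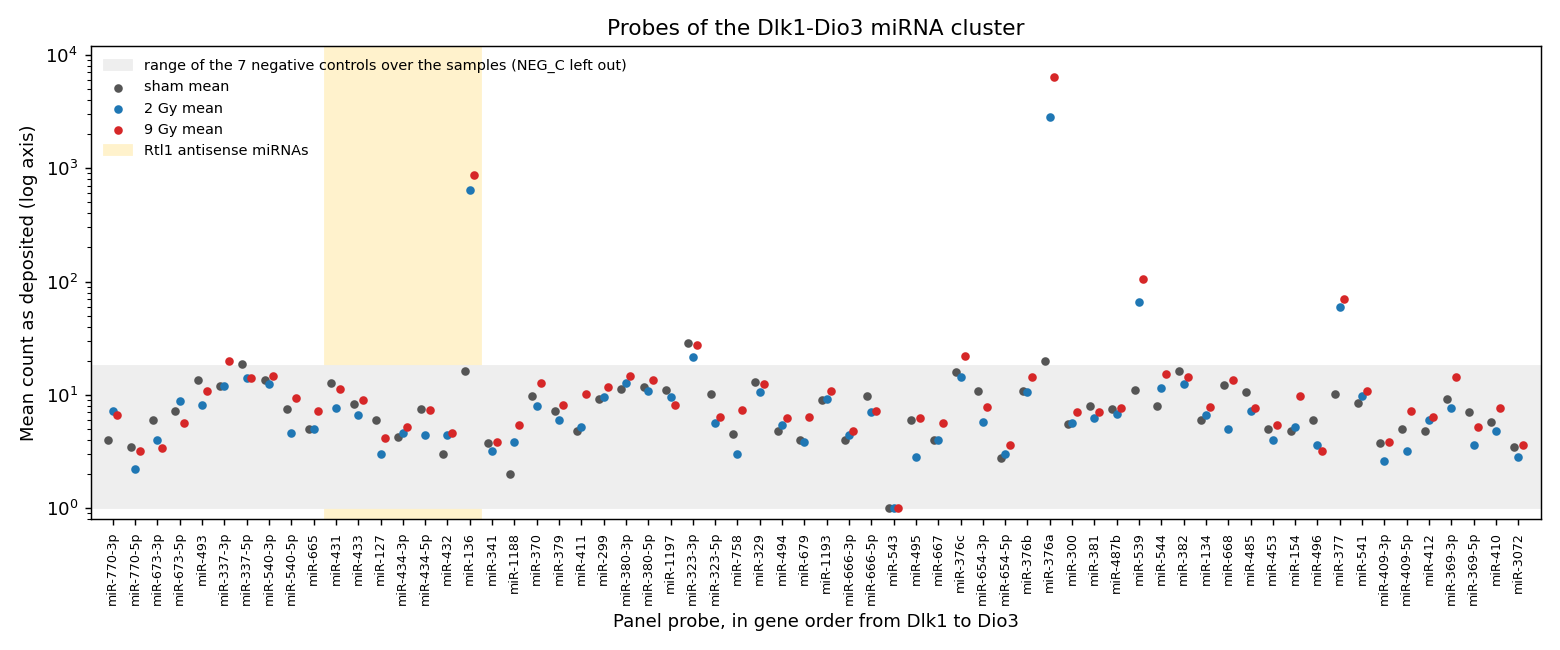
Mean deposited count per group on a log axis for the 64 panel probes of the Dlk1-Dio3 cluster in gene order, with the range of the 7 negative controls (NEG_C left out) in grey and the Rtl1 antisense miRNAs on a yellow band. At 2 and 9 Gy miR-136 stands at 639.6 and 877 counts while the other probes of the yellow band stay in the grey range, and outside it miR-376a, miR-539 and miR-377 have irradiated means of 59.4 or more while the highest group mean of any other probe is 28.5, for miR-323-3p in sham.

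miR-376a and miR-136 did not keep one ratio of counts. There were 1.55, 1.05, 1.19 and 1.0 counts of miR-376a per count of miR-136 in sham replicates 1 to 4, where both lie near background. The ratio was 4.66, 4.79, 3.06, 4.90 and 4.51 at 2 Gy and 6.69, 4.74, 4.78, 9.17 and 10.9 at 9 Gy. It was more uniform at 2 Gy than at 9 Gy, where replicates 4 and 5 were the highest, and the doses overlapped. Together these probes made up most of the extra miRNA counts: at 2 Gy the mean total was 3005 counts above sham, of which miR-136 gave 623 (20.7%) and miR-376a 2797 (93.1%), so the remaining probes together gave fewer counts than in sham. At 9 Gy the mean total was 8234 counts above sham, with 861 from miR-136 (10.5%) and 6394 from miR-376a (77.7%).

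Among all tested probes, those whose log2 scaled counts followed miR-136 most closely over the 14 samples were miR-376a (Pearson r = 0.992), miR-297c (0.974), miR-539 (0.974), miR-377 (0.970) and miR-2183 (0.958). The median r over the 175 probes was 0.02, and 9 probes were above 0.9. These values describe the step between sham and irradiated samples that all of these probes share, and the points share library and depth. In sham, 2 Gy and 9 Gy, miR-297c averaged 8.75, 61.0 and 88.2 counts and miR-2183 averaged 34.0, 108 and 186.4. Neither lies in the Dlk1-Dio3 list.

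With the step removed, by taking deviations from the dose means in the 10 irradiated samples, the order changed. miR-501-5p (r = 0.824), miR-30b (0.803), miR-1839-3p (0.788), miR-297c (0.781) and let-7i (0.772) now came first, and miR-376a fell to rank 48 with r = 0.284. Over the 175 probes this r had a median of 0.01 and ran from -0.881, for miR-532-5p, to 0.824. miR-501-5p and let-7i had group means of 10.8 to 16.0 counts, close to background, and miR-30b had 13.5, 41.2 and 55.0 counts in sham, 2 Gy and 9 Gy. miR-297c was the only probe among the first 5 in both orders. With 10 samples, and a spread of miR-136 of 11.6% (coefficient of variation of scaled counts) at 2 Gy and 8.37% at 9 Gy, these are descriptions of small deviations.

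Markers of the blood cells and tissues that could shed RNA into plasma were set beside miR-136. The red cell list (miR-451, miR-144 and miR-486) summed to 34 to 85 counts in sham, 29 to 284 at 2 Gy and 27 to 168 at 9 Gy, most of it miR-451, and neither of the 2 red cell probes with enough counts to be tested, miR-451 and miR-486, was called at either dose. The platelet and myeloid list (miR-223 and both arms of miR-126) summed to 12 to 21, 13 to 32 and 20 to 37 counts. Only miR-223 had enough counts to be tested, and it was not called. The lymphocyte list (both arms of miR-142, miR-150 and miR-155) summed to 864 to 1049, 499 to 659 and 577 to 1009, most of it miR-142-5p, which was called lower at both doses and so moved opposite to miR-136. With the log2 ligation control as a covariate neither call for miR-142-5p remained (log2 fold change -0.10 and -0.21, edgeR adjusted p = 0.914 and 0.850). That fit called only 3 of the 176 tested probes at each dose. The ligation controls did not overlap between sham and either dose, so it could hardly tell them apart from irradiation. With hybridisation control scaling the 9 Gy call was lost at a log2 fold change of -0.54 (edgeR adjusted p = 0.0563), against -0.77 with TMM. miR-150 was not called at either dose (log2 fold change 0.11 and -0.09, edgeR adjusted p = 0.903 and 0.910). miR-142-3p had too few counts to be tested, at 3 to 11 in sham, 4 to 8 at 2 Gy and 6 to 10 at 9 Gy. The fall in this list thus rests on miR-142-5p alone and is not read as a fall of lymphocyte RNA. miR-155 was listed at 1 count in all sham and 2 Gy samples and ran from 1 to 307 counts at 9 Gy with a median of 14. It passed the filter on low counts only through the 9 Gy samples, so its own test is not read as a result. It is still counted among the 28 of 176 tested probes called higher at 9 Gy.

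The tissue markers were at background. The liver list (miR-122, miR-192 and miR-194) summed to 11 to 14 counts in sham, 10 to 17 at 2 Gy and 8 to 16 at 9 Gy. The muscle list (miR-1, miR-133a and miR-206) summed to 19 to 33, 22 to 32 and 23 to 33, and the brain list (miR-9, miR-124 and miR-128) to 8 to 17, 8 to 21 and 15 to 20. In each of these 3 lists the mean of all 3 probes was at or under the mean of the samples' highest negative control, NEG_C left out, in every group. No liver or brain probe had enough counts to be tested, and of the muscle probes only miR-1 did and was not called. The panel holds no protein, so the EV label itself could not be checked against vesicle markers.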

How the data were processed

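Plasma EVs of 14 mouse samples were profiled on the nCounter mouse miRNA panel. The deposited values are raw counts per probe; the authors used nSolver for their own normalisation, and control probes are still in the table. No count was 0, the smallest was 1 (362 of 8764 values), and whether 0 was written as 1 is not stated. Groups came from the labels. The table holds 566 mouse and 33 viral miRNA probes, and all 599 made up the library size. Total counts of 4781 to 20150 leave most probes limited by counting error near background.

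TMM factors were computed over the 599 probes, probes with a mean under 10 counts were left out, and the remaining 176 were fitted with edgeR 4.0.16 (robust quasi-likelihood, R 4.3.3), all 3 groups in 1 fit. Tests were two-sided, with Benjamini-Hochberg adjustment over the 176 probes and a threshold of 0.05. Scaled counts are counts over the TMM library size relative to its geometric mean. The comparison of miR-136 between doses was planned as a test and is given without a p-value, since the probe was chosen on these counts. Exact permutation tests of the control probes and totals over samples used log2 values (scipy 1.17.1). Likeness is Pearson's r over log2 scaled counts with a pseudocount of 0.5. The script was tested on simulated data. Alternatives were DESeq2 1.42.0, limma-voom (limma 3.58.1), other scalings, filters and background subtractions, and each sample left out. Samples were counted as the labels list them. Over all probes, ligation controls included, 26 of 26 within-group pairs differed beyond counting noise (chi-square), and over miRNA probes alone 18 did and 0 of the 6 sham pairs, so the sham miRNA counts do not show whether these are separate mice or repeat runs.

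The text names the miR-136 probe, the Rtl1 antisense probes, the Dlk1-Dio3 probes past the threshold, the 5 probes most like miR-136 in each measure, and the marker lists. The probe and these lists were chosen with earlier results of these data known. The gene order of RefSeq placed all 56 cluster names inside the Dlk1 to Dio3 interval, and sequences are RefSeq's on GRCm38.p6.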

Additional observations from a re-analysis of the deposited data

Results flagged for a closer look

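Of 72 groups of values examined, 6 had a sample far from the other samples of its group. Chance alone flags about 1 group in 20.

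The ratio of miR-376a to miR-136 counts in 2 Gy replicate 3 was 3.06, lower by 1.44 than the next 2 Gy sample at 4.51. It is the sample in which miR-136 ranked 3 among the mouse miRNA probes.

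The other values were counts of probes that resembled miR-136. In 2 Gy replicate 1, miR-377 was 57 counts above the next sample at 53, miR-2183 was 58 above the next at 100, and miR-501-5p was 8 above the next at 11. In 9 Gy replicate 5, miR-2183 was 75 counts above the next sample at 184 and miR-297c was 39 above the next at 85. These 2 samples also had the highest miR-136 counts of their groups, 795 and 987, and the highest total miRNA counts of their groups, 10455 and 20150.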

How the results depend on the processing

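miR-136 at 9 Gy over 2 Gy (log2 0.13) turned to -0.15 when scaled by total miRNA count. It was higher at 9 Gy in the other 14 alternatives, at up to 0.36 with hybridisation control scaling, and in all fits without 1 sample (0.09 to 0.19).

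The ratio of miR-136 to sham was 44.0 at 2 Gy and 48.1 at 9 Gy. It was 32.7 and 34.2 when scaled by the 100 highest miRNAs, 26.7 and 24.0 by total count, 4.70 and 5.71 by ligation controls, 87.4 and 95.9 with the median negative control subtracted, and 640.1 and 706 with the mean plus 2 SD subtracted, where the sham value is the floor of 1. Leave-one-out ranges were 41.5 to 46.0 and 45.4 to 50.3. Per ligation control the ratios of 5.13 and 6.20 became 9.94 and 12.1 with the negative control median subtracted, and 4.29 to 6.11 and 5.19 to 7.40 without 1 sample.

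Called probes at 2 Gy (26), 9 Gy (30) and between doses (0) changed as follows. They were 9 and 11 with a mean of at least 30 counts, 49 and 75 with the 100 highest miRNAs, 106, 145 and 7 with total count, 169 and 167 with ligation controls, 7, 8 and 2 with the mean plus 2 SD subtracted, and 3 and 3 with the ligation control as a covariate. limma-voom called 17 at 2 Gy and 1 between doses, DESeq2 1 between doses, hybridisation controls 12 and the negative control median 3. Scaling also turned the split: 15 higher and 34 lower at 2 Gy with the 100 highest miRNAs, 12 and 94 with total count, and 2 and 167 with ligation controls, against 23 and 3. At 9 Gy the splits were 21 and 54, 15 and 130, and 2 and 165, against 28 and 2. Without 1 sample the counts were 20 to 26, 26 to 32 and 0 to 3 (3 without 2 Gy replicate 1).

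Called Dlk1-Dio3 probes at 2 Gy (4) and 9 Gy (3) were 9 and 9, 15 and 17, and 18 and 18 under the 100 highest, total count and ligation scalings, and 2 at 2 Gy with the covariate. Without 1 sample they were 3 to 4 and 3 to 5 (5 without 9 Gy replicate 2). The causes were not tested.

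Replicate numbers did not pair the samples: deviations of same-numbered samples correlated at -0.08 to 0.17. With the replicate number as a block, miR-136 between doses was 0.13 on the log2 scale and 3 probes were called.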
